A study of Mus musculus with 7 samples.

Results

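The genes described here are 32 interferon-response genes of the mouse, chosen by name from a list and matched by symbol to the rows of the count table. All 32 had a row among the 35976 genes of the table. The study asked what Egfr, which encodes the receptor of epidermal growth factor, does in amygdala astrocytes under chronic stress. Adeno-associated virus (AAV) carried Cas9 into the amygdala of male C57BL/6J mice, with expression from the astrocyte promoter GfaABC1D and either sgEgfr, a guide RNA against Egfr (3 libraries), or the control guide sgRosa, against the Rosa locus (4 libraries). Both groups received the vector, had at least 2 weeks of expression, tube restraint on 7 days, then fear conditioning (1 day) and extinction (3 days), and both were enriched for astrocytes with beads against the surface antigen ACSA-2. The ages of the mice were not given in the labels, which also left unsaid whether the libraries were from different mice. P-values thus refer to the spread between these libraries, which may be technical. No library without vector was analysed here, so the part of the vector, of Cas9 and of the stress in the baseline of these genes cannot be told apart.

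Type I interferons are secreted when cells sense viral nucleic acid. They bind a receptor made of IFNAR1 and IFNAR2, whose kinases JAK1 and TYK2 activate STAT2, which enters the nucleus with IRF9 to bind the interferon-stimulated response element in the promoters of target genes. The targets block viral entry, translation and replication, and some of them, such as IRF7 and USP18, amplify or restrain the response. In the brain, microglia, endothelial cells, astrocytes and neurons can all respond to interferon.

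The libraries held 5852870 to 22579222 counts, so that 3 counts stood for 0.133 to 0.513 CPM (counts scaled to a common total). Libraries 3 and 4 of sgRosa differed by little more than counting error, with a chi-square of 1.04 per degree of freedom against 14.8 to 158 for the other 20 pairs of libraries, and they were summed to 1 sample, sgRosa 3+4, which left 3 samples per guide. Egfr itself had levels of 13.3, 2.87 and 10.6 CPM in sgRosa 1, 2 and 3+4 and, in sgEgfr 1 to 3, of 10.7, 5.69 and 8.04 CPM, so the groups overlapped. The mRNA level did not check the guide, because small edits by Cas9 need not lower it. Although the cells were labelled astrocytes, 10 oligodendrocyte markers took 6.94% to 14.1% of the counts of a sample and 12 astrocyte markers took 0.518% to 1.26%. The promoter that drives Cas9 is active in astrocytes, whereas the counts were those of this mixture. In such bulk samples, fewer cells of a type and less RNA per cell cannot be told apart.

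Of the 32 genes, 27 had at least 1 count in every library and 27 passed the filter on low counts. The 5 that did not pass were Isg15, Oas1a, Zbp1, Mx1 and Ifi44. The 32 genes together held 33061 counts over the 7 libraries, and Ifnar1, Ifi27, Ifit2 and Xaf1 made up 55.1% of them. Their summed level was 299.6, 303.1 and 338.9 CPM of the unscaled total in sgRosa 1, 2 and 3+4 and 358.3, 288.7 and 336.9 CPM in sgEgfr 1 to 3, so the ranges of the guides overlapped. Per kilobase of exon, 19 of the 27 genes that passed lay below percentile 50 of all 13891 genes tested that had a length, and the median member lay at percentile 29.1. These genes were thus detected in most cases but mostly at low levels.

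**Figure D1:**
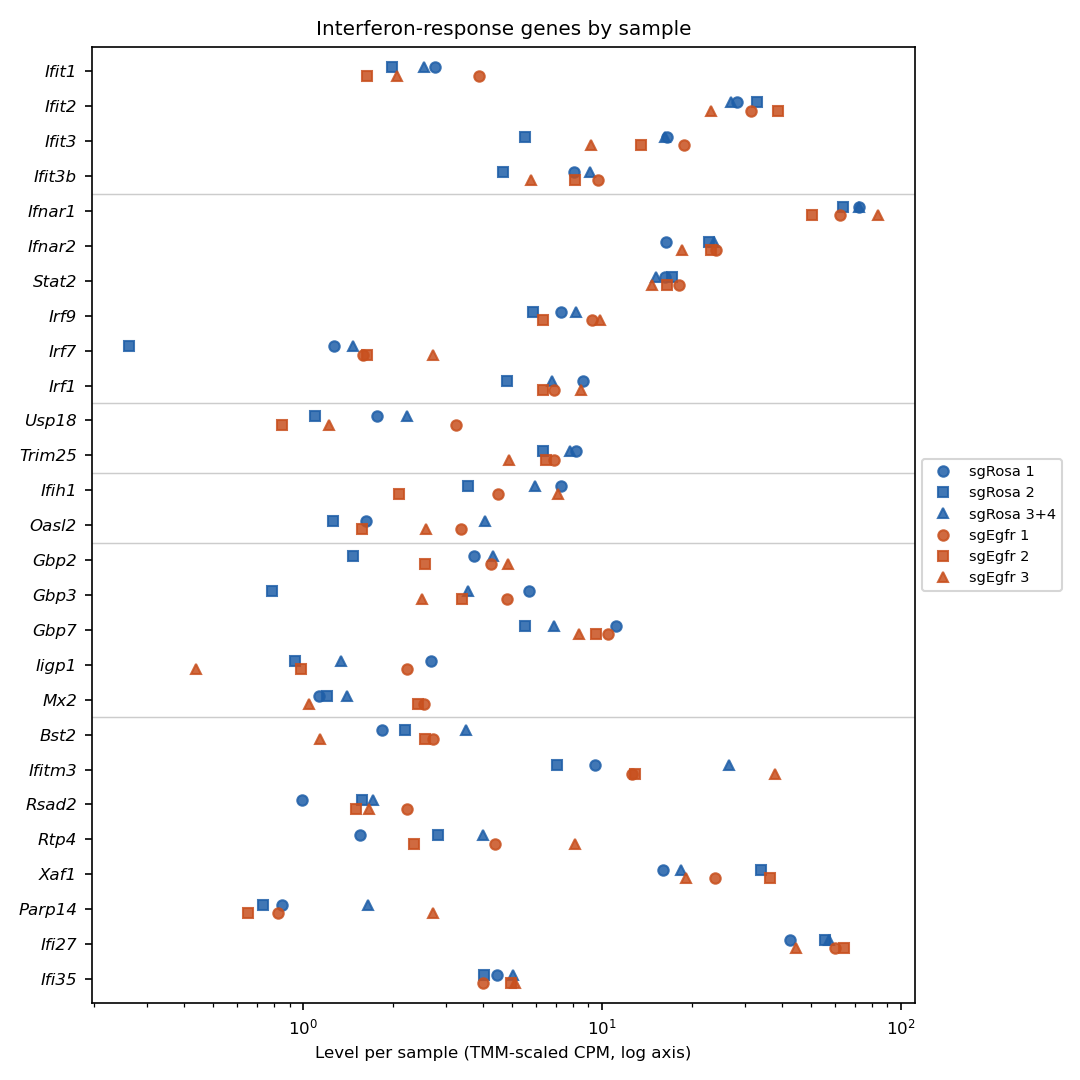
TMM-scaled CPM (log axis) of the 27 interferon-response genes that passed the filter, grouped by role, with 1 point per sample, sgRosa in blue and sgEgfr in orange. The ranges of the guides overlap for every gene shown except Irf7, for which the 3 sgRosa samples (0.26 to 1.46 CPM) lie left of the 3 sgEgfr samples (1.59 to 2.71 CPM).

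The promoters are shown because the interferon-stimulated response element was the property that most of the matched genes shared. The genes were chosen by name, not by sequence. They were chosen as interferon-response genes, however, so a high share of this element is not independent of the choice. RefSeq windows of GRCm38.p6, from 250 bases before to 50 bases after the start of the gene, were at hand for 24 of the 32 genes. The element was searched as GAAANNGAAA and its reverse complement TTTCNNTTTC, and the gamma-activated site, known from the response to interferon gamma, as TTCNNNGAA, which reads the same on both strands. Of the 24 genes, 13 held the response element (54.2%), against 1079 of all 27025 genes with a window (3.99%, these genes included). The gamma-activated site was found in 9 of the 24 (37.5%), against 9.55% of all genes. A match is a description of letters and not a bound site. In the sequences that follow, written 5′ to 3′ along the strand of the gene, capitals mark matches to either motif, and overlapping matches run together.
Isg15 (chr4:156200769-156201068, minus strand): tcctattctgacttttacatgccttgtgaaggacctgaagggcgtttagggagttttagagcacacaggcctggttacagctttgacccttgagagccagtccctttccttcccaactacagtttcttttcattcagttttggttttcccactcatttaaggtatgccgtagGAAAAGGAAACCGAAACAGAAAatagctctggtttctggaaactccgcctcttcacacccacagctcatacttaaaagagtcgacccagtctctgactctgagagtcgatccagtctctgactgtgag
Ifit1 (chr19:34640639-34640938, plus strand): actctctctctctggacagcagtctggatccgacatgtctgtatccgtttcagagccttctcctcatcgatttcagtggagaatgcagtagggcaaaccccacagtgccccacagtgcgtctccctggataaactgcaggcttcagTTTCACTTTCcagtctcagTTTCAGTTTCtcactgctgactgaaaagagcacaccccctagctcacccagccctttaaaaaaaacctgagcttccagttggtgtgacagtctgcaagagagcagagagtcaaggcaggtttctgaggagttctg
Ifit3 (chr19:34583279-34583578, plus strand): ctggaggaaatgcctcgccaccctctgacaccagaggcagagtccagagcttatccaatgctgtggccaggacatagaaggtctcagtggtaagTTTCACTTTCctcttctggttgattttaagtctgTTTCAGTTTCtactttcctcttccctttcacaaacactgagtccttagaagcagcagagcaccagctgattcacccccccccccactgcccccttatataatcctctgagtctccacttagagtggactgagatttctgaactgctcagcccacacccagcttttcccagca
Ifit3b (chr19:34607707-34608006, plus strand): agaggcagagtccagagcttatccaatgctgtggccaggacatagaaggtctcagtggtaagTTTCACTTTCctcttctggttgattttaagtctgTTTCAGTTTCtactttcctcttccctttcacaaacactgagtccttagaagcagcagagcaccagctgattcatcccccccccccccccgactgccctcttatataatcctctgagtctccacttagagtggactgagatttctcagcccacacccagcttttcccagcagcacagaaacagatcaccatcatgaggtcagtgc
Ifitm3 (chr7:141010695-141010994, minus strand): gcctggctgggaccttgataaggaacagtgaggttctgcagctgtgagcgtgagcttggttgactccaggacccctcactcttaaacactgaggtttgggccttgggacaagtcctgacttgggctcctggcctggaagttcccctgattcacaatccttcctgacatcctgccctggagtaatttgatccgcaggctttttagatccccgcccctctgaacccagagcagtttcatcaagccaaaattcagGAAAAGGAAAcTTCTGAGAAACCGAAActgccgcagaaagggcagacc
Ifnar1 (chr16:91484965-91485264, plus strand): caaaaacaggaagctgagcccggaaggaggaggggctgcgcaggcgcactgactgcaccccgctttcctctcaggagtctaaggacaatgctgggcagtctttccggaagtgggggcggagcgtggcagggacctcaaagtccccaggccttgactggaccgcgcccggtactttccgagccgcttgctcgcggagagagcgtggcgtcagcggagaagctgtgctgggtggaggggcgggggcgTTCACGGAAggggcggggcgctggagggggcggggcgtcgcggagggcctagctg
Isg15 held 3 overlapping response elements that began 78, 72 and 66 bases before the start. Ifit1, Ifit3 and Ifit3b held 2 each on the other strand, all 3 genes with the pair TTTCACTTTC and TTTCAGTTTC. Ifitm3 held 2 elements within the first transcribed bases, with a gamma-activated site that overlapped the later element, and Ifnar1 held only a gamma-activated site, across the start. The windows of Ifit3 and Ifit3b were 76.2% identical over their whole aligned length, shifted against each other.

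Levels and spread were set beside the response element. The 11 tested genes with it had a median level of 1.54 CPM per kilobase and the 10 tested without it 2.21. The median SD of log2 CPM between samples of the same guide was 0.57 with the element and 0.29 without it. Their ranges, 0.12 to 1.04 and 0.17 to 0.86, overlapped. For the gamma-activated site both orders were reversed. The 8 tested genes with that site had a median level of 4.54 CPM per kilobase and the 13 without it 1.18. Their median SDs were 0.31 and 0.53, with ranges of 0.17 to 0.95 and 0.12 to 1.04. No test was made of these differences, nor of the part of the level in the spread. Stat2, which has the response element, was the steadiest of all 27 genes. Irf7, whose window did not hold that element, was among the 4 most variable.

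The receptor and the transcription factors that carry its signal were detected in all libraries. Ifnar1, a chain of the type I interferon receptor, had levels of 72.5, 64.0 and 72.4 CPM in sgRosa 1, 2 and 3+4 and, in sgEgfr 1 to 3, of 62.5, 50.5 and 83.6 CPM. The lowest and the highest value both came from sgEgfr, and the groups overlapped (log2 fold change of sgEgfr over sgRosa -0.087, 95% confidence interval -0.56 to 0.38). Ifnar2, the other chain, was at 16.4, 22.7 and 23.7 CPM in the sgRosa samples and at 24.0, 23.1 and 18.5 CPM in sgEgfr (log2 fold change 0.063, interval -0.43 to 0.56). Per kilobase of exon, Ifnar1 was at 11.4 and Ifnar2 at 6.43 CPM. Part of the reads of Ifnar2 is uncertain, because 8.87% of its 50-base stretches also lie in the overlapping transcript Gm21970. Among the genes described below, the share that also lies in other genes was larger for several. It was 45% for Ifit3b, 13.65% for Rtp4, 12.85% for Gbp7, 10.74% for Ifi35 and 10.02% for Ifitm3. Those of Ifit3 and Oas1a are given with their levels. The reads of these genes are uncertain in the same way.

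Stat2, the signal transducer specific to type I and type III interferon, was nearly flat over the samples. It had levels of 16.2, 17.1 and 15.2 CPM in sgRosa 1, 2 and 3+4 and, in sgEgfr 1 to 3, of 18.1, 16.6 and 14.7 CPM (log2 fold change 0.022, interval -0.43 to 0.47). Irf9, its DNA-binding partner, was at 7.27, 5.85 and 8.20 CPM in the sgRosa samples and at 9.26, 6.35 and 9.88 CPM in sgEgfr, so that sgEgfr 2 lay inside the sgRosa range (log2 fold change 0.26, SE 0.29). Irf1, a factor induced mainly by interferon gamma, ranged from 4.81 CPM in sgRosa 2 to 8.61 CPM in sgRosa 1, and the sgEgfr samples lay between them.

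Irf7, which drives the later wave of interferon gene transcription, was the only tested member whose sample ranges did not overlap between the guides. It was at 1.27, 0.26 and 1.46 CPM in sgRosa 1, 2 and 3+4, from 18, 5 and 23 counts, and at 1.59, 1.64 and 2.71 CPM in sgEgfr 1 to 3, from 25, 25 and 62 counts. All 3 sgEgfr samples were thus above all 3 sgRosa samples, but the gap between the nearest samples was 1.46 against 1.59 CPM. The log2 fold change was 1.00 (SE 0.64, interval -0.50 to 2.51), and the difference was not called (edgeR adjusted p = 0.997, unadjusted p = 0.159). Of all 14936 genes tested, 3.76% were higher in sgEgfr with ranges that did not overlap, so 1 of 27 members is near the background. Without sgRosa 2 the log2 fold change was 0.53. Irf7 shares exon positions with Phrf1 on the opposite strand, and whether the counting used strand was not stated in the labels.

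Isg15, which encodes a ubiquitin-like modifier, was almost without counts. Only sgRosa 2, with 1 count, and sgEgfr 2, with 2 counts, were above 0, each at or below the 3 counts that a value of 0 allows. The libraries with 0 counts allowed a level of up to 0.133 to 0.513 CPM, depending on their depth. Usp18, the protease that removes ISG15 and restrains the receptor, was detected in all libraries, from 0.85 CPM in sgEgfr 2 to 3.23 CPM in sgEgfr 1. Trim25, a ubiquitin ligase of the RIG-I pathway, had the highest level per kilobase of these 3 genes (1.18 CPM), with 8.19, 6.32 and 7.82 CPM in sgRosa 1, 2 and 3+4 and 6.91, 6.48 and 4.90 CPM in sgEgfr 1 to 3. Its groups overlapped (log2 fold change -0.29, SE 0.28). In the annotated transcripts of GENCODE M21, 3.96% of the 50-base stretches of Isg15 also lie in another gene. Copies elsewhere in the genome were not analysed here.

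The IFIT genes, whose proteins bind foreign RNA and block its translation, were unequal in level. Ifit2 had levels of 28.3, 33.0 and 27.1 CPM in sgRosa 1, 2 and 3+4 and, in sgEgfr 1 to 3, of 31.6, 38.8 and 23.2 CPM, with the lowest and the highest value in sgEgfr (log2 fold change 0.081, interval -0.42 to 0.58). Per kilobase of exon, Ifit2 was at 7.72, Ifit3 at 7.62, Ifit3b at 3.78 and Ifit1 at 0.931 CPM. Ifit3 and Ifit3b had similar profiles. Ifit3 was at 16.5, 5.54 and 16.3 CPM in the sgRosa samples and at 18.8, 13.5 and 9.18 CPM in sgEgfr. Ifit3b was at 8.04, 4.65 and 9.09 CPM in the sgRosa samples and at 9.70, 8.12 and 5.77 CPM in sgEgfr. In both genes the lowest sample was sgRosa 2 and the highest sgEgfr 1. Their counts are uncertain, because 51.2% of the 50-base stretches of the Ifit3 transcript also lie in Ifit3b. Ifit1 ranged from 1.64 to 3.87 CPM. All 4 IFIT genes had log2 fold changes between 0.054 and 0.11, and none was called.

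Of Ifih1, Oasl2, Oas1a and Zbp1, which act in the sensing of nucleic acid, Ifih1, which encodes the RNA sensor MDA5, had the highest level per kilobase of exon (0.623 CPM). It had levels of 7.27, 3.55 and 5.98 CPM in sgRosa 1, 2 and 3+4 and, in sgEgfr 1 to 3, of 4.50, 2.09 and 7.13 CPM, a log2 fold change of -0.29 (SE 0.50). The sgEgfr samples spanned nearly the whole range of all samples. Oasl2, of the oligoadenylate synthetase-like family, ranged from 1.25 CPM in sgRosa 2 to 4.07 CPM in sgRosa 3+4. Oas1a, an oligoadenylate synthetase that activates RNase L, had 25 counts over all libraries and was at 0 in 3 of 7, and 57.6% of its 50-base stretches also lie in Oas1g. Zbp1, a sensor of Z-form nucleic acid, had at most 3 counts in any sgRosa library, 0 in sgEgfr 1 and 2 and 17 in sgEgfr 3, so most of its 23 counts came from sgEgfr 3. The 2 tested genes of this group had log2 fold changes of opposite sign.

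The interferon-induced GTPases were led by Gbp7, at 1.54 CPM per kilobase of exon. It had levels of 11.2, 5.54 and 6.93 CPM in sgRosa 1, 2 and 3+4 and, in sgEgfr 1 to 3, of 10.5, 9.56 and 8.39 CPM (log2 fold change 0.27, SE 0.32), so sgRosa 1 lay above all sgEgfr samples. Gbp3 was the most variable gene of the 27 between samples of the same guide, with 5.72, 0.78 and 3.56 CPM in sgRosa and 4.82, 3.40 and 2.49 CPM in sgEgfr (log2 fold change 0.094, SE 0.66). Gbp2 ranged from 1.46 CPM in sgRosa 2 to 4.85 CPM in sgEgfr 3. All 3 guanylate-binding protein genes were lowest in sgRosa 2. Iigp1, an immunity-related GTPase, was lowest in sgEgfr 3, and it was at 2.68, 0.94 and 1.34 CPM in the sgRosa samples and at 2.22, 0.98 and 0.44 CPM in sgEgfr (log2 fold change -0.45, SE 0.69). Mx1 and Mx2, listed as transcribed pseudogenes by RefSeq for this strain, differed in detection. Mx1 had 3 counts, all in sgRosa 3. Mx2 was at 1.13, 1.20 and 1.40 CPM in the sgRosa samples and at 2.54, 2.42 and 1.05 CPM in sgEgfr, so that 2 sgEgfr samples were above and 1 below all sgRosa samples (log2 fold change 0.68, SE 0.47).

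Ifi27 had the highest level per kilobase of all 32 genes, 37.0 CPM, at percentile 92.2 of the genes tested. Its level was 42.6, 55.8 and 57.4 CPM in sgRosa 1, 2 and 3+4 and 60.4, 64.7 and 44.6 CPM in sgEgfr 1 to 3, with overlapping groups (log2 fold change 0.12, interval -0.34 to 0.58). Ifitm3, which blocks the fusion of viruses with endosomes, followed at 26.2 CPM per kilobase and varied more between samples. It was at 9.46, 7.06 and 26.6 CPM in the sgRosa samples and at 12.6, 12.9 and 38.0 CPM in sgEgfr, so that sgRosa 3+4 and sgEgfr 3 stood apart from the other 4 samples. The log2 fold change of Ifitm3 was 0.56 (SE 0.62, interval -0.87 to 2.00), and without sgEgfr 3 it was -0.17.

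Rtp4, a chaperone of receptors that also binds viral RNA, had levels of 1.55, 2.82 and 4.01 CPM in sgRosa 1, 2 and 3+4 and, in sgEgfr 1 to 3, of 4.38, 2.36 and 8.13 CPM. The highest value was that of sgEgfr 3, and sgEgfr 2 lay inside the sgRosa range (log2 fold change 0.83, SE 0.55, and 0.27 without sgEgfr 3). Parp14, an ADP-ribosyltransferase, had its 2 highest values in the same samples as Ifitm3, 1.65 CPM in sgRosa 3+4 and 2.71 CPM in sgEgfr 3, against 0.65 to 0.85 CPM in the other 4. Xaf1, an antagonist of the apoptosis inhibitor XIAP, had its 2 highest values in other samples, with 34.1 CPM in sgRosa 2 and 36.5 CPM in sgEgfr 2 against 15.9 to 23.8 CPM in the other 4. Bst2, the tetherin that holds budding virus on the cell surface, ranged from 1.14 CPM in sgEgfr 3 to 3.50 CPM in sgRosa 3+4. Rsad2, which encodes viperin, ranged from 0.99 to 2.22 CPM and Ifi35 from 4.00 to 5.12 CPM. Ifi44 had 19 counts over all libraries, 9 of them in sgRosa 1. Of the 8 tested genes of this group, 7 had log2 fold changes above 0, and none was called.

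Between the guides, 0 of the 27 tested genes were higher and 0 lower at an edgeR adjusted p under 0.05, and 0 had an unadjusted p under 0.05. Of all 14936 genes, 0% were called and 2.68% had an unadjusted p under 0.05. DESeq2 and limma-voom also called 0 members and 0 genes, with 500 and 418 of all genes at an unadjusted p under 0.05. Log2 fold changes were above 0 for 22 of the 27 genes, with a median of 0.11 and a range of -0.45 to 1.00, against 52.9% above 0 and a median of 0.020 over all genes. That count rested on single libraries: it was 13 of 27, with a median of -0.015, without sgRosa 2, and 14 of 27, with a median of 0.071, without sgEgfr 1. Of the marker lists of cell types, 11 of 12 microglia and macrophage markers were above 0 (median log2 fold change 0.41), as were 10 of 12 endothelial (0.67), 9 of 9 tested neuron (0.56), 5 of 6 oligodendrocyte precursor (1.03) and 8 of 12 astrocyte markers (0.25). Other lists leaned less or the other way, with 6 of 10 oligodendrocyte (0.015) and 3 of 8 pericyte and fibroblast markers (-0.041) above 0. The 1 tested marker of the T cell and B cell list had -0.84 and that of the monocyte and neutrophil list -0.79. In each list 0 were called. The part of these cell types in the direction of the interferon-response genes was not tested. The confidence intervals of the members were of unequal width, from -0.43 to 0.47 for Stat2 to -2.06 to 1.16 for Iigp1.

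**Figure D2:**
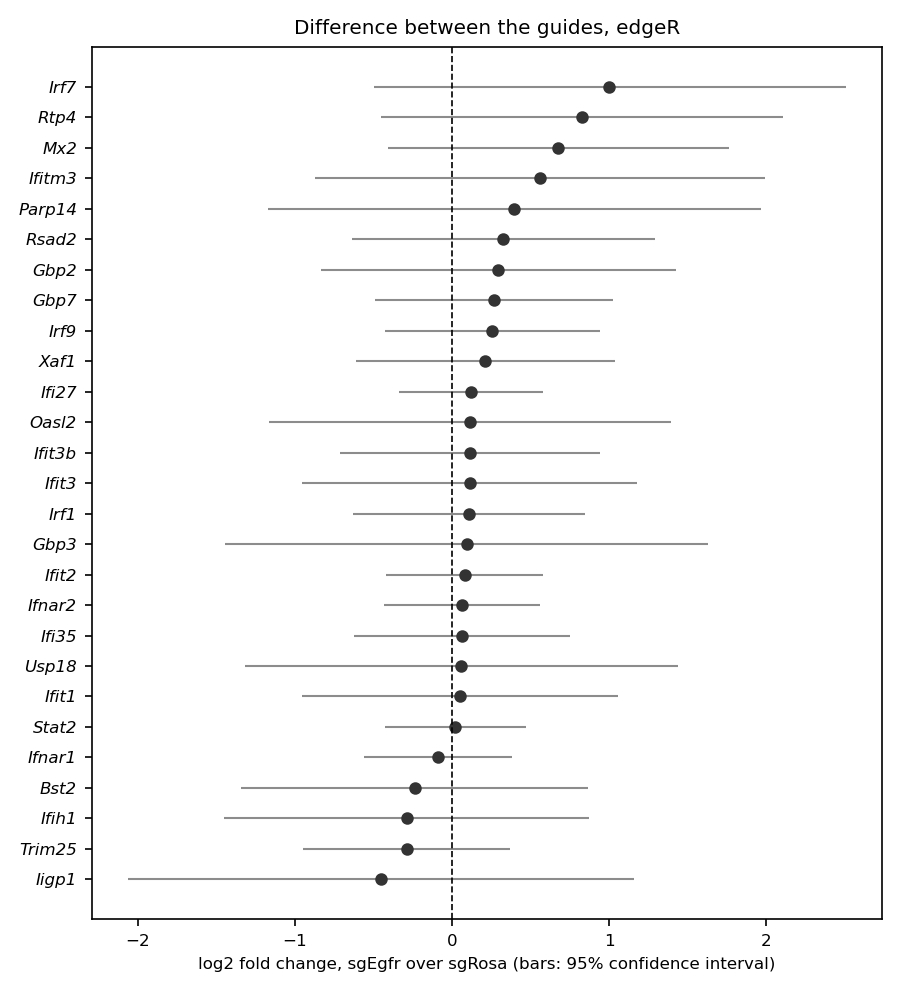
Log2 fold change of sgEgfr over sgRosa from edgeR for the 27 tested genes, ordered by size, with 95% confidence intervals as bars. Points run from -0.45 for Iigp1 to 1.00 for Irf7, and every interval spans 0.

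The genes varied between samples of the same guide. The median SD of log2 CPM within the guides was 0.48, against 0.34 for all genes, and the median level of the 27 genes was 5.09 CPM, against 16.1 CPM for all genes. The part of the low level in that spread was not tested. Over all 6 samples of both guides, the lowest and highest sample differed more than 2-fold for 18 of the 27 genes, against 45.0% of all genes tested. Stat2 (SD 0.12) and Ifi35 (0.17) varied least, and Gbp3 (1.04), Ifitm3 (0.95), Iigp1 (0.89) and Irf7 (0.86) varied most.

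The sample sgRosa 2 was low for many of these genes. It was the lowest of the 6 samples for 10 of the 27, namely Ifit3, Ifit3b, Irf9, Irf7, Irf1, Oasl2, Gbp2, Gbp3, Gbp7 and Ifitm3, and the highest for 0, whereas over all genes it was the lowest for 24.7% and the highest for 21.5%. Relative to each gene's mean over the samples, the median member was at -0.35 on the log2 CPM scale in sgRosa 2, against 0.0012 for the median of all genes there. In sgEgfr 1 it was at 0.29, with 8 genes highest and only Ifi35 lowest, whereas of all genes 11.7% were highest and 8.40% lowest there. The sample sgEgfr 3 held extremes of both kinds, with 8 genes highest (Ifnar1, Irf9, Irf7, Gbp2, Ifitm3, Rtp4, Parp14 and Ifi35) and 6 lowest (Ifit2, Stat2, Trim25, Iigp1, Mx2 and Bst2). The 27 genes thus did not share a single order of the samples.

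**Figure D3:**
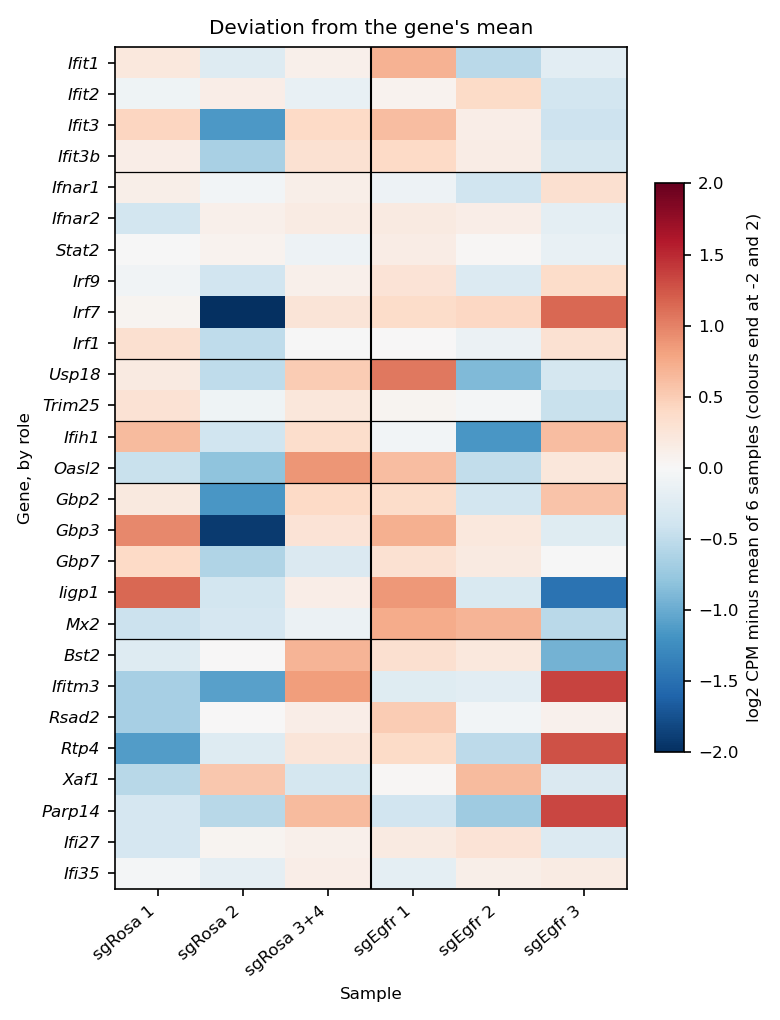
Colour map of log2 TMM-scaled CPM minus the gene's mean over the 6 samples for the 27 tested genes (rows, by role) in each sample (columns), with colours ending at -2 and 2. The sgRosa 2 column is mostly blue, darkest for Irf7 (0.26 CPM) and Gbp3 (0.78 CPM), while the sgEgfr 3 column holds reds (Ifitm3, Rtp4, Parp14, Irf7) as well as blues (Iigp1, Bst2).

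Markers of several cell types moved between the same samples. In sgRosa 2 the 12 astrocyte markers were at their lowest, with a mean deviation of -0.81 on the log2 CPM scale and 0.518% of the counts, and the 12 endothelial markers were at -0.56, against -0.60 in sgRosa 3+4. Neuron markers were also at their lowest in sgRosa 2 (-0.61), and pericyte and fibroblast markers were at -0.023. Other lists lay above their means there: oligodendrocyte precursor (0.37), oligodendrocyte (0.32) and microglia and macrophage markers (0.30). Mitochondrial genes took 6.10% of the counts in sgRosa 2 and 8.48% to 14.6% in the other 6 libraries. In the other samples the astrocyte markers lay between -0.062 and 0.45. In sgEgfr 1, where the median member was highest, oligodendrocyte precursor markers were at 0.97, endothelial at 0.33, astrocyte at 0.26, pericyte and fibroblast at 0.22 and neuron markers at 0.19. Microglia and macrophage markers were at 0.13 and oligodendrocyte markers at 0.016 in that sample. Microglia and macrophage markers, 12 of 12 detected, took 0.017% to 0.033% of the counts in sgRosa samples and 0.021% to 0.045% in sgEgfr samples, with the highest share in sgEgfr 2. Endothelial markers, 12 of 12 detected, took 0.0056% to 0.0088% in sgRosa and 0.0086% to 0.010% in sgEgfr. Of the blood cell markers, the neutrophil genes S100a8 and S100a9 had 72 and 36 counts in sgEgfr 1 and at most 2 in any other library, while the T cell gene Cd8a and the neutrophil gene Ly6g were at 0 in all libraries. The highest total of the 9 lymphocyte markers was 0.00038% of the counts, in sgRosa 2. The part of these cell types in the levels of the interferon-response genes was not tested.

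**Figure D4:**
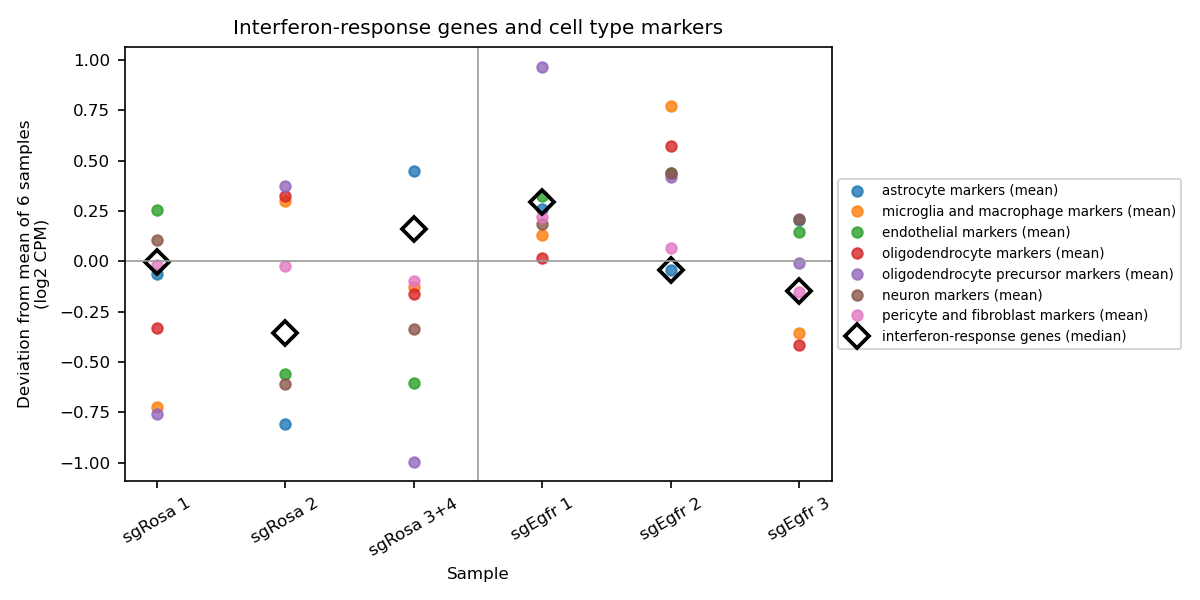
Median deviation of the 27 interferon-response genes (open diamonds) and mean deviation of 7 cell type marker lists (dots) from the mean of the 6 samples, in log2 CPM, for each sample. The diamonds lie lowest in sgRosa 2 (-0.35), where the astrocyte markers are also lowest (-0.81), and highest in sgEgfr 1 (0.29). In sgRosa 2 the oligodendrocyte precursor (0.37), oligodendrocyte (0.32) and microglia and macrophage markers (0.30) lie above 0.

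The other genes of the pathway were read from fixed lists. The tested genes named from a list are those with its smallest unadjusted p in edgeR, and so not typical of it. Of 21 interferon genes, 18, among them Ifnb1 and all 13 Ifna genes on the list, had 0 counts in all 7 libraries, which allows up to 0.133 CPM in the deepest library and 0.513 CPM in the shallowest. The 3 exceptions, named after their values were seen, were Ifng with 42, Ifnk with 31 and Ifnz with 3 counts in all, and 0 of the 21 passed the filter. Ifng, which encodes interferon gamma, was counted 7, 13, 10 and 9 times in the libraries sgRosa 1 to 4, against 0, 2 and 1 in sgEgfr 1 to 3. Its samples were thus at 0.49 to 1.21 CPM in sgRosa and at 0 to 0.13 CPM in sgEgfr, without overlap. Of the 14936 genes that passed the filter, which Ifng did not, 3.85% were lower in sgEgfr without overlap. Ifng is named for this after its values were seen. With no filter on low counts 0 of 24809 genes were called by edgeR and 685 had an unadjusted p under 0.05. The T cell gene Lck, with 7 to 34 counts in every library, was at 1.57 to 1.84 CPM in sgRosa and 0.46 to 1.49 CPM in sgEgfr. It was the 1 marker of the T cell and B cell list that passed the filter. The other T cell markers were near the floor, and the counts per library of those detected overlapped between the guides. Cd3e had 0 to 7 in sgRosa and 0 to 4 in sgEgfr, and Cd3d 0 to 8 and 0 to 2. Cd4 had 0 to 13 in sgRosa and 1 to 8 in sgEgfr, Cd3g 0 to 1 in both, and Cd8a 0 in all libraries. The part of T cells in the counts of Ifng was not tested. Of 9 other receptors and kinases, 8 were tested, 3 with log2 fold changes above 0 and 0 called. Il10rb, a chain of the type III interferon receptor, had 0.39, the kinase Jak2 -0.17 and Ifngr1, of the interferon gamma receptor, 0.15. Ifnlr1, the specific chain of the type III receptor, had 0 counts in all libraries.

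Of 18 sensors and adaptors, 15 were tested, 7 with log2 fold changes above 0 and 0 called. Dhx58, which encodes the sensor LGP2, had levels of 2.33, 0.68 and 2.35 CPM in sgRosa 1, 2 and 3+4 and, in sgEgfr 1 to 3, of 1.14, 0.52 and 0.66 CPM (log2 fold change -1.20, SE 0.62). Tlr7, an endosomal RNA receptor, had a log2 fold change of 1.21 (SE 0.65) at 0.28 to 1.92 CPM. Ddx58, which encodes RIG-I, had 0.58 (SE 0.33), and its ranges, 2.61 to 3.88 CPM in sgRosa and 3.98 to 5.76 CPM in sgEgfr, did not overlap. It was the 1 gene of the 15 tested with this, and the gap between the nearest samples was small. Of all genes tested, 3.76% were higher in sgEgfr without overlap. The DNA receptor Tlr9 and the DNA sensor Mb21d1 (cGAS) had 10 and 28 counts over all libraries.

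Of 49 further interferon-stimulated genes, 31 were tested, 15 with log2 fold changes above 0, a median of -0.023 and 0 called, which left 48.4% above 0. Gbp6 had a log2 fold change of -1.26 (SE 0.58), with 1.31 to 2.54 CPM in sgRosa and 0.33 to 1.09 CPM in sgEgfr, ranges that did not overlap. Of all genes, 3.85% were lower in sgEgfr in this way. Ifitm2, a relative of Ifitm3, had 0.67 and Uba7, the enzyme that activates ISG15, 0.96. Of 11 negative regulators, 3 were above 0, and 0 were called. Socs3, the feedback inhibitor of cytokine receptors, was at 26.3, 34.3 and 20.9 CPM in the sgRosa samples and at 59.0, 30.4 and 110.6 CPM in sgEgfr (log2 fold change 1.30, SE 0.44), so that sgEgfr 2 lay inside the sgRosa range. It was the 1 gene of the 11 tested in that list with an unadjusted p under 0.05 in edgeR. The lists of other receptors and kinases, of sensors and adaptors and of further interferon-stimulated genes had 0. Of all 14936 genes tested, 2.68% were under 0.05, so 1 gene over these lists is no excess. Otud5, a deubiquitinase, had -0.48 and Irf2, a repressor of interferon genes, 0.17. The edgeR adjusted p was 0.997 for each gene named in these lists that was tested.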

How the data were processed

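RNA-seq was analysed for 7 libraries. The deposited values are raw read counts by gene (whole numbers, unscaled). The submitters' processing notes name the build mm10 and, among other tools, fastp 0.23.2, STAR 2.7.5c and featureCounts 2.0.1. Annotation, strand setting and treatment of reads with several matches are not given in the sources used here. Counts of overlapping and near-identical genes are therefore uncertain. The 7 single-library files equalled the table.

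Genes were kept with filterByExpr (minimum count 10, total 15), scaled by TMM and tested for the guide alone with edgeR 4.0.16 under R 4.3.3 (quasi-likelihood, glmQLFTest). Benjamini-Hochberg adjustment ran over 14936 genes. Log2 CPM used a prior count of 2. Exon lengths and shared 50-base stretches came from GENCODE M21. Alternatives used limma 3.58.1 and DESeq2 1.42.0. The script was tested on simulated data. Limits from counts cover counting error only, since no molecular identifiers were stated.

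The members and lists were chosen with earlier results of these data known. Values in every sample were given for the highest gene of each role, genes without overlap, the 6 smallest p, the 4 largest spreads and the signalling core. Per pathway list, up to 3 tested genes were named, those with the smallest unadjusted p in edgeR.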

Additional observations from a re-analysis of the deposited data

How the results depend on the processing

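In all 16 alternatives run, 0 members and 0 genes were called. The median log2 fold change of the members lay between 0.079 and 0.19 under the 9 alternatives that left out no single library, and between -0.015 and 0.17 with each of the 7 libraries left out in turn. Of 237 log2 fold changes of single members under the 9 alternatives, 8 changed sign: Ifit1 (-0.027) and Usp18 (-0.11) with the replicate block, Ifit1 (-0.029) and Usp18 (-0.11) with limma-voom, Usp18 (-0.031) and Oasl2 (-0.094) with 7 separate libraries, and Stat2 (-0.020) and Bst2 (0.078) with sgRosa 3 and 4 both left out. With each library left out, 20 of 27 members changed sign at least once, and the ranges were Ifit1 -0.39 to 0.26, Ifit2 -0.13 to 0.26, Ifit3 -0.25 to 0.34, Ifit3b -0.13 to 0.30, Ifnar1 -0.30 to 0.051, Ifnar2 -0.084 to 0.17, Stat2 -0.054 to 0.097, Irf1 -0.088 to 0.32, Usp18 -0.70 to 0.37, Ifih1 -0.76 to 0.040, Oasl2 -0.19 to 0.34, Gbp2 -0.055 to 0.50, Gbp3 -0.38 to 0.72, Iigp1 -1.22 to 0.085, Bst2 -0.45 to 0.073, Ifitm3 -0.17 to 0.82, Xaf1 -0.11 to 0.62, Parp14 -0.54 to 0.71, Ifi27 -0.0043 to 0.27 and Ifi35 -0.015 to 0.16. The cause was not tested.

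The groups share replicate numbers, but the labels do not say what a number marks. Same-numbered samples had correlations of their deviations over genes of -0.11, 0.52 and 0.55 for numbers 1, 2 and 3. Pairs with different numbers had correlations of -0.58 to 0.26. The values for numbers 2 and 3 were thus above all of those, while that for number 1 lay among them. Because the labels leave the meaning of the numbers unsaid, the main fit did not pair the samples, and a block on the number was run as an alternative. With the replicate block, 0 genes were called, 705 genes and 1 member, Ifitm3, had an unadjusted edgeR p under 0.05, and 20 of 27 members were above 0. With sgRosa 3 and 4 both left out, Ifitm3 was again the 1 member with an unadjusted edgeR p under 0.05. That fit left out the sgRosa sample with the highest Ifitm3 level, 26.6 CPM against 9.46 and 7.06 CPM. It kept sgEgfr 3, at 38.0 CPM, and so gives no separate support. Isg15, Mx1, Zbp1, Oas1a and Ifi44 had 3 to 25 counts over all libraries and were tested only with no filter on low counts, where 0 were called.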
